A study of Homo sapiens with 9 samples.

Results

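The membrane-type matrix metalloproteinases were followed in LN229 glioblastoma cells, an established human line, before and after the addition of sodium formate. The group holds 6 genes, MMP14, MMP15, MMP16, MMP17, MMP24 and MMP25, taken by symbol through their Ensembl identifiers from the 23727 genes of the count table, and all 6 were found. The cells were untreated (0 h) or had received 500 µM sodium formate for 8 h or for 24 h, with 3 RNA-seq libraries in each group. All groups shared 1 medium, DMEM containing 10% serum, 2 mM of glutamine and 17 mM of glucose, per the labels' protocols. No untreated library was taken at 8 h or 24 h, so formate and time in culture cannot be told apart. The labels do not say whether replicates were separate cultures, so the p-values measure the spread between these libraries, which may be technical.

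Matrix metalloproteinases are zinc-dependent endopeptidases that cut extracellular matrix and cell-surface proteins. Most are secreted, whereas the membrane-type enzymes are held at the cell surface, either by a transmembrane helix with a short cytoplasmic tail (MMP14, MMP15, MMP16 and MMP24) or by a glycosylphosphatidylinositol (GPI) anchor (MMP17 and MMP25). They are made as inactive precursors, which furin and related proprotein convertases cleave at a basic site between the propeptide and the catalytic domain. In gliomas MMP14 is best known as the collagenase of invading cells and as the activator of secreted pro-MMP2, which it captures through the inhibitor TIMP2.

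The zinc-binding motif of the members other than MMP16 is shown first, as sense-strand coding DNA from GENCODE release 29. The codons of its 3 histidines are in capitals. What sets the membrane-type genes apart is the anchor described above, which is not shown. In each of these genes the stretch lay in exon 5, at chr14:22843283-22843315 for MMP14, chr16:58040563-58040595 for MMP15, chr12:131841659-131841691 for MMP17, chr20:35263817-35263849 for MMP24 and chr16:3057068-3057100 for MMP25, all on the plus strand of GRCh38.
MMP14: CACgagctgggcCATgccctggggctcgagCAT
MMP15: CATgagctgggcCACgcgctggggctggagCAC
MMP24: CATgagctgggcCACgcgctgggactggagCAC
MMP17: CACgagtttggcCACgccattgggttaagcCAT
MMP25: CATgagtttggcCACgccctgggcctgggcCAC
The stretches of MMP15 and MMP24 matched at 32 of 33 bases, those of MMP14 and MMP15 at 28, and those of MMP17 and MMP25 at 25. MMP17 and MMP24, which changed in opposite directions below, matched at 20.

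A furin-type site was coded by exon 3 in each gene, and MMP15 had a further match in exon 4, which is not shown. The site is printed with the codons that define it in capitals and that of its variable residue, here arginine in each gene, in lower case, at chr14:22841977-22841988, chr16:58038330-58038341, chr20:35251954-35251965, chr12:131838683-131838694 and chr16:3050083-3050094 in the order below, again plus strand.
MMP14: CGAaggAAGCGC
MMP15: CGGcggCGTCGG
MMP24: CGTaggCGGAGA
MMP17: CGCaggAGACGC
MMP25: AGGcggCGTCGC
Over the whole coding sequence, MMP17 was most like MMP25, with 67.3% identical bases in a global alignment, and the transmembrane genes were 62.9% to 70.2% identical to each other. No 50-base run of any GENCODE transcript was shared between members. MMP16, whose letters are not shown, had both features in the same exons, 5 and 3.

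Total counts ran from 22222298 to 25848242 per library, and 15273 genes passed the filter on low counts. Levels are given as CPM, a gene's count relative to the library total after adjustment with a TMM factor, which ran from 0.920 to 1.06. Untreated replicate 1 and replicate 1 of 8 h stood apart from the other libraries of their groups on the first principal component of the 500 most variable genes, with scores of -23.5 and -21.6 against -3.41 to -0.80 for the other untreated and 8 h libraries and 9.57 to 25.0 for those of 24 h. Of 10 neural and glioma markers, 9 lay above the floor of 3 counts in every library, with VIM at 3200 to 6280 CPM, NES at 887 to 1010 and SOX2 at 67.2 to 103. SOX9 was low among them, at 0.42 to 1.16 CPM. The summed level of the 10 markers was 6290 to 8630 CPM at 0 h, 6420 to 7350 at 8 h and 5380 to 6220 at 24 h, where it lay below all others. Most of this sum was VIM, with a mean of 4330 CPM, so it says little of the other markers. GFAP, the astrocyte filament, was near that floor at 0.13 to 0.43 CPM. Summed leukocyte markers lay between 0.31 and 0.73 CPM and epithelial markers between 0 and 0.18. Summed endothelial markers went from 0.42 to 0.71 CPM at 0 h to 1.16 to 1.86 at 24 h, most of it VWF, while PECAM1 stayed at or below 0.13. A summed smooth muscle and fibroblast list went from 51.0 to 68.7 CPM at 0 h to 75.8 to 99.9 at 24 h. The part of these genes in the results below was not tested.

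The members spanned more than 3 orders of magnitude in untreated cells. To compare genes with each other, counts were divided by the union of a gene's annotated exons and scaled to the same sum in every library (TPM). MMP14 stood first with 233 ± 18.3 TPM (mean ± SD, n = 3), above 96.8% of the 23252 genes with a length. MMP16 followed with 102 ± 35.5 TPM, then MMP17 with 51.4 ± 7.05 and MMP15 with 47.4 ± 4.54. MMP24 was at 1.07 ± 0.212 TPM. MMP25 closed the order at 0.116 ± 0.067 TPM, from 4, 1 and 3 counts in the 3 untreated libraries. MMP14, MMP16, MMP24 and MMP25 each kept the same place in all 9 libraries. MMP15 and MMP17 were neighbours whose untreated TPM values overlapped, and MMP15 was the higher of the pair in replicate 1 at 0 h and at 8 h. At 24 h they no longer overlapped on this scale: MMP17 lay between 66.5 and 92.6 TPM and MMP15 between 53.1 and 60.3. This held with either length, whereas at 0 h and 8 h the order of the pair depends on the length used. With the longest transcript in place of the union of exons, MMP17 passed MMP16 in 2 libraries (replicate 1 of 0 h and replicate 3 of 24 h) and was above MMP15 in every library. The closest pair of values was then 45.8 against 36.03 TPM, in replicate 1 of 8 h.

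**Figure D1:**
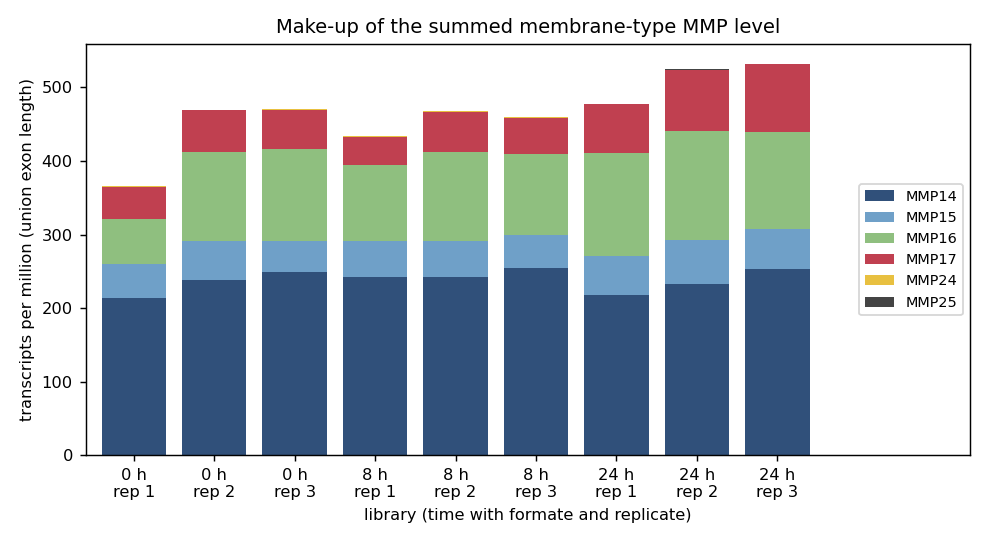
Summed level of the 6 genes in each library, in TPM on the union of exons, stacked by gene, with libraries ordered by time with formate and by replicate. MMP14 forms the largest block in all 9 libraries, MMP16 the next, and MMP24 and MMP25 are too low to be seen at this scale.

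The make-up of the family differed at 24 h. MMP14 held 58.3%, 50.8% and 52.9% of the summed TPM at 0 h, 55.9%, 51.7% and 55.4% at 8 h, and 45.6%, 44.4% and 47.7% at 24 h, so that the libraries of 24 h lay below all others. The share of MMP17 was 11.9%, 12.2% and 11.4% at 0 h and 13.9%, 15.7% and 17.4% at 24 h, again without overlap. MMP16 held 22.9% ± 5.41 at 0 h and 27.4% ± 2.38 at 24 h, and these overlapped, with 26.3% as the highest untreated share and 24.7% as the lowest of 24 h. The summed level was 435 ± 60.2 TPM at 0 h, 454 ± 17.3 at 8 h and 512 ± 29.4 at 24 h. Untreated replicate 1 was the lowest at 366 TPM. These shares are descriptions with no test, and a share can fall while its gene holds its level.

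After 8 h of formate no member had moved beyond the spread of the libraries. None of the 5 tested members passed an adjusted p of 0.05 in the quasi-likelihood test of edgeR (adjusted by Benjamini-Hochberg over all genes tested), and 0% of those genes did, with or without the block described below. DESeq2 also called none of them. No member had an unadjusted p under 0.05, against 79 of the 15273 genes. The fitted log2 fold changes were 0.04 for MMP14 (95% interval -0.16 to 0.24), -0.03 for MMP15 (-0.28 to 0.21), 0.10 for MMP16 (-0.28 to 0.48), -0.14 for MMP17 (-0.42 to 0.15) and -0.07 for MMP24 (-0.63 to 0.49). The interval was widest for MMP24 and narrowest for MMP14. The signs for MMP15, MMP16 and MMP24 turned when 1 library was left out of the fit without the block: untreated replicate 1 for MMP16, that library or replicate 3 of 8 h for MMP15, and untreated replicate 3 for MMP24. All 6 members had overlapping replicates at 0 h and 8 h, where 3.31% of genes did not overlap.

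After 24 h of formate, MMP17 was higher and MMP24 lower than in untreated cells, and the abundant MMP14 was close to its starting level. These 2 of 5 tested members passed the adjusted p of 0.05, 1 in each direction. Of all genes tested, 4.25% passed, 2.47% higher and 1.77% lower. With the replicate number as a block the same members passed, and the share over all genes was then 24.1%. MMP16, MMP17 and MMP24 had replicates that did not overlap between 0 h and 24 h, as did 30.3% of all genes. As the RNA was taken in bulk, a change in the share of cells that hold a transcript and a change per cell cannot be told apart.

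**Figure D2:**
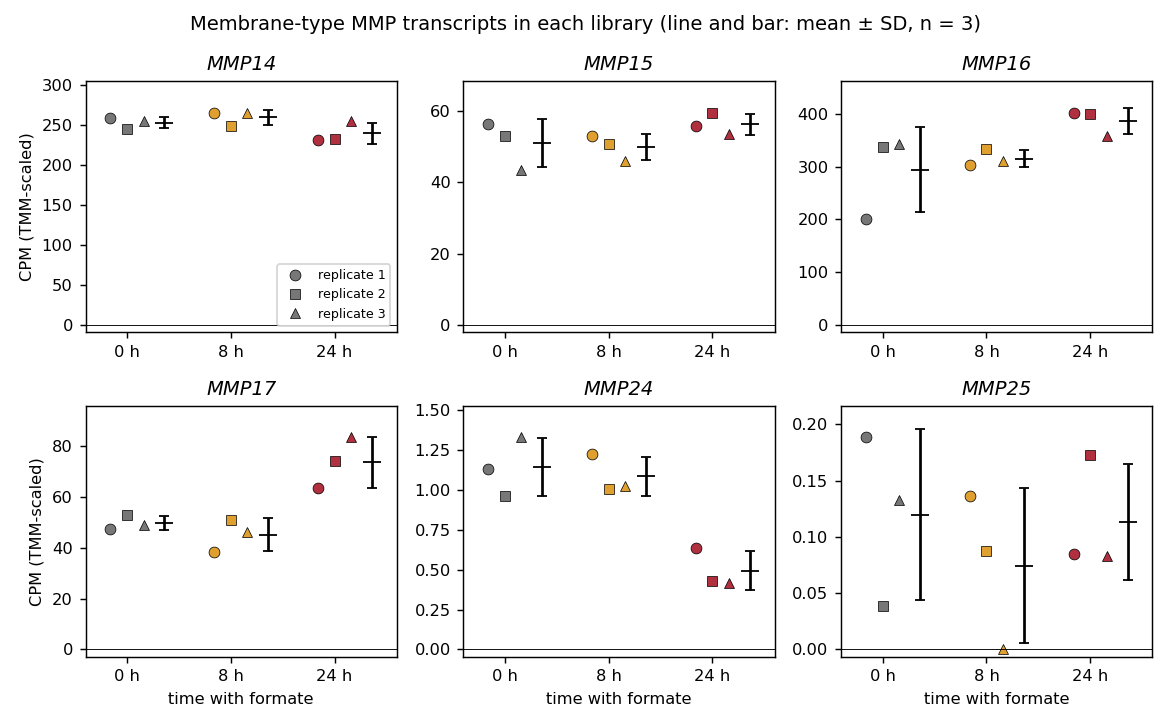
TMM-scaled CPM of each member in every library against time with formate, with a symbol for each replicate number and the mean ± SD of 3 libraries beside them; each panel has its own linear axis. MMP17 at 24 h (63.2 to 83.2 CPM) lies above all other libraries, and MMP24 at 24 h (0.41 to 0.63 CPM) below them.

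MMP17 (ENSG00000198598, GRCh38 chromosome 12, 131828393 to 131851783, plus strand) codes for a GPI-anchored enzyme that can cut the aggrecanase ADAMTS4 into its active form. Its levels were 47.3, 52.6 and 49.0 CPM at 0 h, 38.2, 50.9 and 46.3 at 8 h, and 63.2, 73.8 and 83.2 at 24 h, in the order of replicates 1, 2 and 3. All libraries of 24 h were above all 6 of the others, so each was also above its same-numbered untreated library. MMP17 rose 1.48-fold from 0 h to 24 h (log2 fold change 0.56, standard error (SE) 0.13, 95% interval 0.28 to 0.85, adjusted p 0.0363 by edgeR). It rose 1.63-fold from 8 h to 24 h (log2 fold change 0.70, SE 0.13, 95% interval 0.42 to 0.99, adjusted p 0.0226). The change was larger in size than that of all but 8.86% of the tested genes in the comparison of 24 h with 8 h, and all but 13.97% against 0 h. An F test over the 3 times gave MMP17 an adjusted p of 0.0289, 1 of the 5 tested members under 0.05, where 3.64% of genes passed. With the block the adjusted p at 24 h against 0 h was 0.00187. Without the block, 6 of the 9 fits that each left out a library gave an adjusted p above 0.05 at 24 h against 0 h. These left out any untreated library, replicate 3 of 8 h, or replicate 2 or 3 of 24 h, the last giving the highest value, 0.183. All 9 passed with the block.

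MMP24 (ENSG00000125966, chromosome 20, 35226654 to 35277000, plus strand), a transmembrane member known from brain tissue and for cutting N-cadherin, was expressed at low counts. There were 24, 25 and 30 counts at 0 h, 27, 23 and 24 at 8 h, and 15, 10 and 10 at 24 h. In CPM these were 1.13, 0.96 and 1.33 at 0 h, 1.22, 1.01 and 1.02 at 8 h, and 0.63, 0.43 and 0.41 at 24 h. All libraries of 24 h were thus below all others, though each still above the floor of 0.12 to 0.14 CPM that 3 counts represent. MMP24 fell by 56.3% from 0 h to 24 h (log2 fold change -1.20, SE 0.28, 95% interval -1.82 to -0.58, adjusted p 0.0396). From 8 h to 24 h the log2 fold change was -1.13 (SE 0.28, 95% interval -1.75 to -0.50, adjusted p 0.0481). Its size was exceeded by 1.98% of the tested genes at 24 h against 0 h. Leaving out a library without the block took the adjusted p at 24 h against 0 h above 0.05 in 7 of 9 fits, all but those without replicate 1 of 8 h or replicate 1 of 24 h, and up to 0.175. With the block it happened in 1 of 9, at 0.0502 without replicate 3 of 24 h.

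Genes on the opposite strand overlap 21.8% of the exons of MMP24: MMP24OS covers 18.1% and AL121753.2 covers 3.67%. The counting program and its strand setting are not given in the sources used here, so reads of these genes and of MMP24 may not be told apart there. MMP24OS was at 34.4, 32.1 and 32.5 CPM at 0 h, 24.5, 30.5 and 28.95 at 8 h, and 40.4, 36.8 and 43.4 at 24 h. MMP24OS rose between 8 h and 24 h (log2 fold change 0.52, SE 0.11, adjusted p 0.0294 by edgeR) and did not pass at 24 h against 0 h (log2 fold change 0.29, adjusted p 0.136). AL121753.2 did not pass without the block in either comparison with 24 h, with log2 fold changes of 0.39 at 24 h against 0 h and 0.76 at 24 h against 8 h. Another overlapping gene, AL121753.1, shares no exon bases with MMP24 and had too few counts to be tested.

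MMP16 (ENSG00000156103, chromosome 8, 88032009 to 88328025, minus strand), a transmembrane enzyme that can also activate pro-MMP2, had the widest spread in untreated cells of the abundant members. It was at 201, 337 and 344 CPM at 0 h, 303, 333 and 310 at 8 h, and 402, 401 and 358 at 24 h. The low value belonged to untreated replicate 1, and the libraries of 24 h lay above all others, also above the 2 remaining untreated libraries. The log2 fold change at 24 h against 0 h was 0.40 (SE 0.17, 95% interval 0.01 to 0.78), with an unadjusted p of 0.0433 and an adjusted p of 0.177 by edgeR, so MMP16 did not pass, nor with the block (adjusted p 0.0573). Without untreated replicate 1 the value was 0.17 (SE 0.09, adjusted p 0.375), and the value at 8 h against 0 h turned from 0.10 to -0.11. Without that library MMP16 did pass at 24 h against 8 h (log2 fold change 0.28, adjusted p 0.0450), where all libraries gave 0.29 and 0.340. With the block, leaving out untreated replicate 3 instead took MMP16 past the threshold at 24 h against 0 h (0.59, adjusted p 0.0112). A gene on the opposite strand, AC090578.1, overlaps 0.974% of its exons.

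MMP14 (ENSG00000157227, chromosome 14, 22836557 to 22849027, plus strand) did not differ between the times beyond the spread of its libraries. It was at 259, 245 and 254 CPM at 0 h, 265, 248 and 265 at 8 h, and 231, 232 and 254 at 24 h. The values of 24 h and 0 h overlapped. At 24 h against 0 h the log2 fold change was -0.08 (SE 0.09, adjusted p 0.594), with a 95% interval from -0.28 to 0.12. It was -0.12 at 24 h against 8 h (adjusted p 0.474). With each library left out in turn, the value at 24 h against 0 h ran from -0.13 to -0.06.

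MMP15 (ENSG00000102996, chromosome 16, 58025566 to 58046901, plus strand), the transmembrane member closest to MMP14 in coding sequence, was at 56.5, 53.0 and 43.5 CPM at 0 h, 52.9, 50.7 and 45.9 at 8 h, and 55.8, 59.5 and 53.5 at 24 h. Replicate 3 was the lowest in each group. At 24 h against 0 h the groups overlapped, and the log2 fold change was 0.14 (SE 0.11, 95% interval -0.10 to 0.39, adjusted p 0.430). At 24 h against 8 h the groups did not overlap, as in 34.3% of genes, and the log2 fold change was 0.17 (adjusted p 0.381). MMP15 did not pass in either comparison.

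MMP25 (ENSG00000008516, chromosome 16, 3046681 to 3060726, plus strand), the GPI-anchored member made chiefly by leukocytes, was at the limit of detection. Its counts were 4, 1 and 3 at 0 h, 3, 2 and 0 at 8 h, and 2, 4 and 2 at 24 h. It did not pass the filter on low counts and was not tested, and a difference between the times was not detectable at this depth. PTPRC, which marks leukocytes, was at 0.04 to 0.13 CPM. MMP25-AS1, which overlaps 35.2% of the exons of MMP25 on the opposite strand, held 67 to 177 counts per library and did not pass in any comparison.

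**Figure D3:**
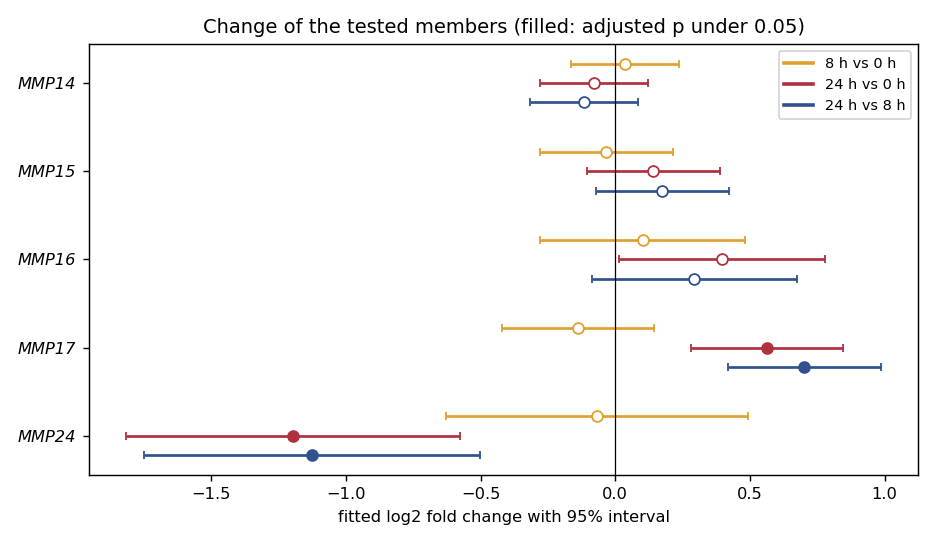
Fitted log2 fold changes of the 5 tested members with 95% intervals, one line per comparison in the colours of the key; filled points have an adjusted p under 0.05 by edgeR. The filled points are those of MMP17 at 0.56 and 0.70 and of MMP24 at -1.20 and -1.13, both at 24 h.

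The same members passed at 24 h against 8 h as against 0 h, MMP17 higher and MMP24 lower, 2 of 5 tested, beside 4.56% of all genes (2.84% higher, 1.72% lower). The libraries of 24 h enter both comparisons, which are therefore not independent.

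**Figure D4:**
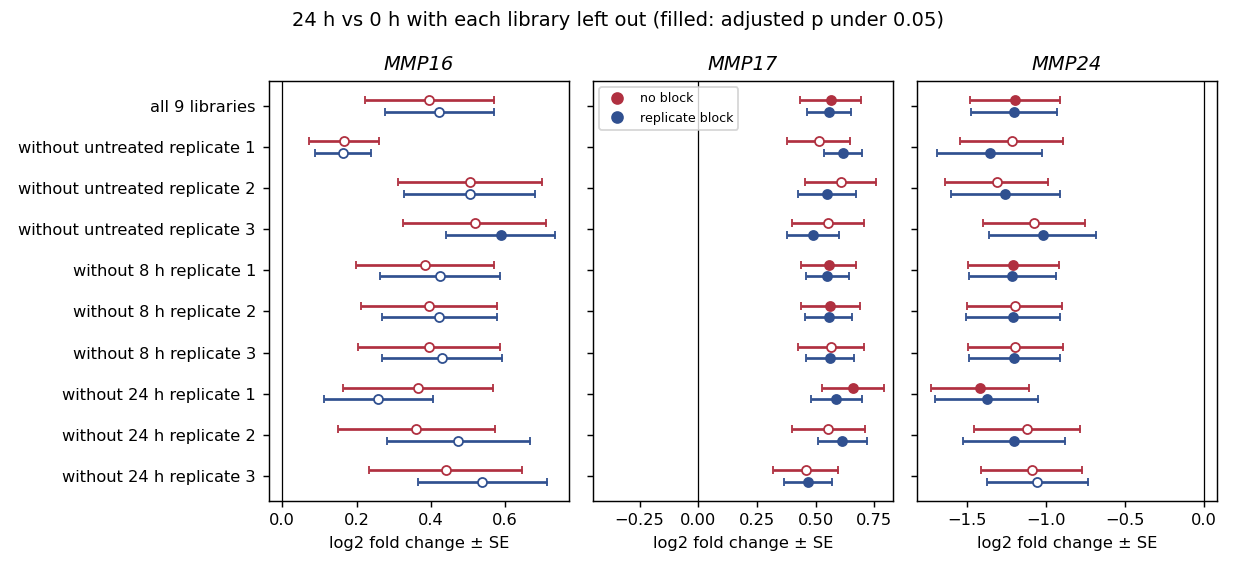
Log2 fold change ± standard error at 24 h against 0 h for MMP16, MMP17 and MMP24, with all 9 libraries and with each left out in turn, without (red) and with (blue) the replicate number as a block; filled points have an adjusted p under 0.05. MMP17 stays between 0.46 and 0.66 and MMP24 between -1.42 and -1.02 throughout, while MMP16 drops to 0.17 and 0.16 without untreated replicate 1.

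Genes that act with these enzymes were read from 6 lists. They cover activation and inhibition of pro-MMP2, convertases, trafficking and invadopodia, substrates, other matrix metalloproteinases, and synthesis and attachment of the GPI anchor. Together the lists named 102 genes, of which 81 were tested. At 8 h 0 of the 81 passed by edgeR or by DESeq2, and none had an unadjusted p under 0.05. At 24 h against 0 h 2 passed (2.47%, beside 4.25% of all genes), CAV1 lower and ADAMTS4 higher. With the replicate block 20 passed (24.7%, beside 24.1% of all genes). When 24 h was compared with 8 h, 3 passed (3.70%, beside 4.56% of all genes): CAV1 and CAV2 lower and DCN, the proteoglycan decorin, higher (log2 fold change 0.87, adjusted p 0.0428). The shares without the block rest on 2 and 3 genes and are not read as lower than those of all genes. With the block the share at 24 h against 0 h was near that of all genes. DESeq2 called 10 of the 81 at 24 h against 0 h, beside 1656 of all 15273 genes. At 24 h against 0 h, 26.4% of all tested genes had an unadjusted p under 0.05, 49.1% had a fitted value below 0, and the median log2 fold change was 0.01.

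In the list of pro-MMP2 activation and its inhibitors, 0 of 6 tested genes passed without the block, 2 had an unadjusted p under 0.05 and DESeq2 called 1. The list median was 0.09. With the block 3 passed, beside 24.1% of all genes: MMP2 and TIMP2 higher and SPOCK1 lower. MMP2, the gelatinase that MMP14 and MMP16 activate, was at 1129, 1351 and 1274 CPM at 0 h and 1530, 1636 and 1749 at 24 h, without overlap. Its log2 fold change was 0.39 (SE 0.13), with an adjusted p of 0.0984 and, with the block, 0.00717. TIMP2, which inhibits MMP2 and MMP14 and also links them on the cell surface, was at 481 ± 57.1 CPM at 0 h and 578 ± 30.6 at 24 h (log2 fold change 0.27, adjusted p 0.195, and 0.0310 with the block). SPOCK1, the proteoglycan testican, had a log2 fold change of -0.34 (adjusted p 0.133, with the block 0.0434). TIMP4, MMP9, MMP13 and CLDN1 had at most 6 counts in any library and were not tested.

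Of the convertases that could cut the propeptide, 0 of 4 tested genes passed without the block, 1 had an unadjusted p under 0.05 and DESeq2 called 0, with a list median of 0.05. With the block, PCSK5 passed higher (log2 fold change 0.33, adjusted p 0.0438) and PCSK7 lower (-0.25, adjusted p 0.0304), beside 24.1% of all genes. PCSK7 was at 87.5 ± 6.74 CPM at 0 h and 73.3 ± 4.75 at 24 h. FURIN, added to the named genes after its values were seen, was at 229 ± 9.70 CPM at 0 h and 198 ± 18.4 at 24 h; it did not pass in either fit (-0.21, adjusted p 0.199, and 0.0918 with the block).

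In the list of trafficking and invadopodia genes, 1 of 26 tested genes passed, beside 4.25% of all genes. With the block 5 passed, beside 24.1% of all genes. Only part of this list is machinery that carries MMP14 to and from the membrane. The list median was -0.09, and 20 of the 26 fitted values were below 0, beside 49.1% of all genes. Genes of a list are not independent, so this count is not read as a shift of the list. CAV1, the main protein of caveolae, fell from 478, 448 and 434 CPM to 338, 309 and 260 (log2 fold change -0.58, SE 0.12, adjusted p 0.0277). Its partner CAV2 had a log2 fold change of -0.46 (adjusted p 0.0514) and passed with the block (adjusted p 0.0137). With the block, RAB8A, named after its values were seen, was also lower (adjusted p 0.0429), and SRC and KIF3A were higher, with log2 fold changes of 0.33 and 0.47 (adjusted p 0.0185 and 0.00834). Leaving out replicate 2 or replicate 3 of 24 h left none of the list past the threshold without the block. No gene of all those tested passed in these fits either.

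Of the cell-surface and matrix substrates, 1 of 23 tested genes passed, beside 4.25% of all genes. With the block 8 passed, 5 higher and 3 lower, beside 24.1% of all genes. The list median was -0.04. ADAMTS4, the aggrecanase that MMP17 can activate, was at 3.86, 6.62 and 7.87 CPM at 0 h, 4.17, 6.12 and 10.1 at 8 h, and 13.4, 11.9 and 20.5 at 24 h. All libraries of 24 h were above the others, and ADAMTS4 rose from 0 h to 24 h (log2 fold change 1.32, SE 0.33, adjusted p 0.0490). CSPG4, a proteoglycan of glioma and progenitor cells, and the scavenger receptor LRP1 passed only with the block (adjusted p 0.00262 and 0.0159, against 0.0547 and 0.0632 without it), at fitted values of 0.57 and 0.61. The 3 lower genes, named after their values were seen, were EPHA2, an ephrin receptor (-0.58, adjusted p 0.0929, and 0.000678 with the block), CD44, the hyaluronan receptor (-0.38, 0.0929 and 0.00690), and FN1, fibronectin (-0.54, 0.163 and 0.0223). DCN passed only with the block at 24 h against 0 h (0.70, adjusted p 0.0757, and 0.00526 with the block). ADAMTS4 was the 1 substrate called without the block. By edgeR, 0 of the 23 were called when any untreated library or replicate 2 of 8 h was left out. The same held without replicate 2 or 3 of 24 h, where no gene of all those tested was called.

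The other matrix metalloproteinases were few: of 17 listed genes, 12 were in the table and 3 were tested, with a median of 0.39. None passed without the block, and all 3 had an unadjusted p under 0.05, beside 26.4% of all genes. DESeq2 called 2, beside 1656 of all 15273 genes. With the block all 3 passed, beside 24.1% of all genes. Beside MMP2, MMP11 (stromelysin 3) was at 3.02, 5.23 and 4.07 CPM at 0 h and 6.30, 7.41 and 9.19 at 24 h (log2 fold change 0.89, adjusted p 0.0856, with the block 0.00398). MMP10 (stromelysin 2) had 21, 16 and 7 counts at 0 h and 5, 6 and 2 at 24 h, the last below the floor of 3 (log2 fold change -1.76, adjusted p 0.0957, and 0.00721 with the block). It passed the filter on low counts only through libraries of 0 h and 8 h, so its fall is not read as a result. A further list held genes that make or attach the GPI anchor, which MMP17 needs to stay on the membrane. Of its 21 tested genes none passed without the block, 3 had an unadjusted p under 0.05 and DESeq2 called 0. The median of that list was -0.07, and with the block PIGW alone passed (log2 fold change -0.35, adjusted p 0.0459), beside 24.1% of all genes.

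**Figure D5:**
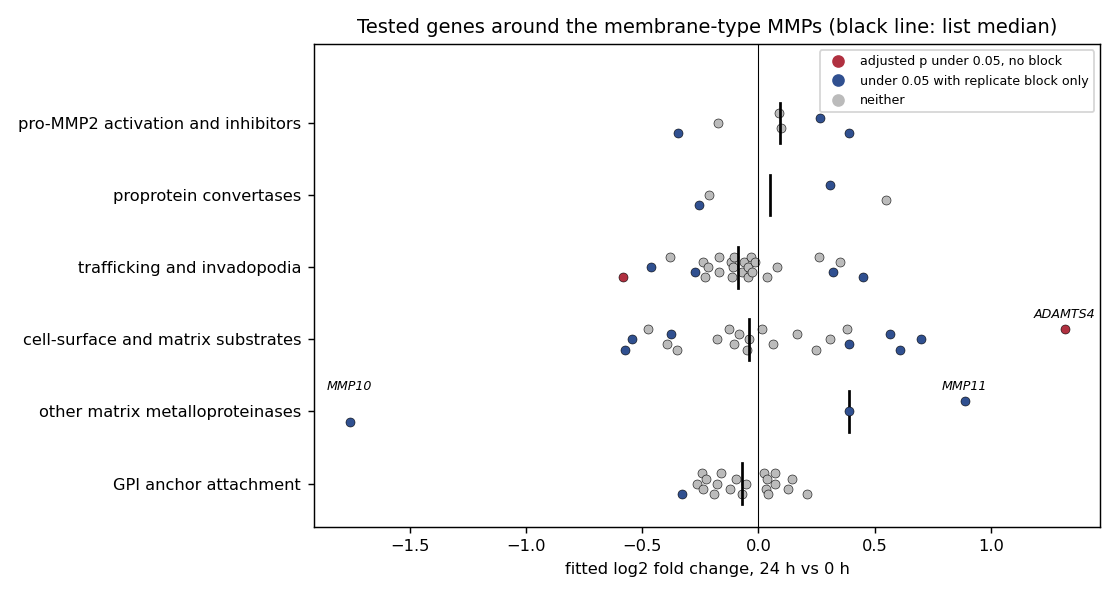
Fitted log2 fold changes at 24 h against 0 h of the tested genes of the 6 lists, one point per gene, with the list median as a black line and points coloured by which fit called them. The lists centre between -0.09 and 0.39, and the far points are MMP10, from few counts, at -1.76, MMP11 at 0.89 and ADAMTS4 at 1.32.

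For each tested member, the genes most alike in pattern were taken by Pearson's r of log2 CPM over the 9 libraries, among 10835 genes of at least 5 CPM. All points share the same libraries, and r is a description. MMP17 was most like KCNAB2, a potassium channel subunit (r = 0.996), and ERG28, of sterol synthesis (0.992). MMP24 was most like CAMK2G, a calmodulin-dependent kinase subunit (0.988), and GRB10, a receptor adaptor (0.979). MMP16 was closest to TMEM131 (0.991) and PANK3, a pantothenate kinase (0.991). The highest r was lower for MMP14, at 0.945 with the tubulin gene TUBA4A and 0.935 with PIGL, of the GPI anchor list. For MMP15 it was 0.934 with TARS3, a tRNA synthetase gene, and 0.905 with the deacetylase gene SIRT2.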

How the data were processed

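RNA from 9 libraries of LN229 cells (spelled LN299 in the source label), 3 per time, was sequenced after preparation with a stranded mRNA kit, from RNA with an integrity number above 9, per the labels' protocols. The submitters' processing notes name bcl2fastq 2.20.0.422, STAR 2.7.4a and GRCh38; the counting program, annotation release and strand setting are not given in the sources used here. The authors deposited raw counts per Ensembl gene as whole numbers. The members and lists were chosen with earlier results of these data known. A gene of the substrate list is not reported here and was left out of the counts over the lists.

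Genes were filtered with filterByExpr, scaled with TMM and fitted with edgeR 4.0.16 in R 4.3.3, all 9 libraries together and each time with its own mean; quasi-likelihood tests were two-sided with Benjamini-Hochberg adjustment over all tested genes at 0.05. Standard errors are the log2 fold change divided by the root of its F statistic, and intervals cover 95%. Alternatives were RLE or upper quartile factors, no filter or a mean of 1 CPM, DESeq2 1.42.0, a replicate block, only the groups compared, and each library left out. The script was tested on simulated data. Log2 CPM for r and components used a prior count of 2. Exons, coordinates and coding DNA came from GENCODE release 29, which held 98.0% of the genes. Besides the members, the text names genes that overlap them, up to 4 genes per list called at 24 h against 0 h with or without the block, and the 2 genes most like each tested member; others are marked as named after their values were seen.

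Same-numbered libraries deviated together from their group means across genes: r was 0.476, 0.432 and 0.414 between 0 h and 8 h and 0.367, 0.164 and 0.251 between 0 h and 24 h for numbers 1, 2 and 3. Number 2 of 24 h was, however, more like number 3 of 0 h, with r of 0.27, than like number 2. The numbers were still taken to pair 0 h with 8 h and with 24 h, from the titles and the same-number correlations. For 24 h this pairing is less clear, and the calls with the block rest on it. Between 8 h and 24 h, r was 0.423, 0.0367 and 0.404, so the numbers were not taken to pair these times. The block still spans all 9 libraries, and its values for that comparison and over the 3 times are given only among the alternatives. Replicates of a group differed by more than sampling noise, with a chi-square per degree of freedom of 7.91 to 54.6.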

Additional observations from a re-analysis of the deposited data

Results flagged for a closer look

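The change from untreated cells differed between the treatment times for MMP17 and MMP24, by edgeR's test of 24 h against 8 h, which tests the difference of both effects against the shared untreated libraries. The difference was 0.70 on the log2 scale for MMP17 (adjusted p 0.0226, higher in 3 of 3 libraries than all of 8 h) and -1.13 for MMP24 (adjusted p 0.0481, lower in 3 of 3). MMP14, MMP15 and MMP16 did not pass that test. With each library left out in turn, MMP17 passed in 5 of 9 fits, failing without replicate 1 or 3 of 8 h or replicate 2 or 3 of 24 h (adjusted p up to 0.131), and MMP24 in 2 of 9, those without untreated replicate 1 or replicate 1 of 24 h (adjusted p up to 0.209).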

How the results depend on the processing

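In both comparisons with 24 h, MMP17 stayed higher and MMP24 lower in every alternative that tested them. RLE and upper quartile factors changed no call of a member. Without the low-count filter 1 member was called at 24 h against 8 h, where MMP24 had an adjusted p of 0.0553; with a mean of at least 1 CPM, which leaves MMP24 untested, 1 member was called in each comparison with 24 h. With only the 2 groups compared, edgeR called 0 members and 124 genes at 24 h against 0 h, MMP17 at an adjusted p of 0.0594 and MMP24 at 0.0769, and 1787 genes at 24 h against 8 h. DESeq2 called 1656 and 1486 genes in these comparisons. At 24 h against 0 h it called 1 gene of pro-MMP2 activation, 2 of trafficking, 7 substrates and 2 other metalloproteinases. As MMP2 is in more than 1 list, these were 10 separate genes of the 81 tested, beside 1656 of all 15273. With the replicate block, 3687 and 3130 genes were called, and 2986 genes and 2 members differed among the 3 times. At 24 h against 0 h the block called 3 genes of pro-MMP2 activation, 2 convertases and 5 of trafficking. Of the other lists it called 8 substrates, 3 other metalloproteinases and 1 of the GPI anchor list. MMP2 again counts more than once, and these were 20 separate genes. The block changed no other call of a member; AL121753.2, which overlaps MMP24, passed with it at 24 h against 8 h (0.75, adjusted p 0.0439). The list alternatives were chosen after seeing the data.

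With each library left out, with or without the block, genes called ran from 0 to 3815 at 24 h against 0 h and from 0 to 5432 at 24 h against 8 h, and members called from 0 to 3 in each. No gene was called in either comparison without the block when replicate 2 or replicate 3 of 24 h was left out. The same held at 24 h against 8 h without replicate 1 of 8 h. Untreated replicate 1 left out gave 2545 genes at 24 h against 8 h. Without the block, genes that differed among the times ran from 0 to 1276 and members from 0 to 1. List calls without the block ran from 0 to 2 for trafficking and from 0 to 1 for substrates and for the GPI anchor list. At 8 h, signs turned within -0.12 to 0.042 for MMP15, -0.11 to 0.31 for MMP16 and -0.21 to 0.13 for MMP24. MMP15 and MMP17 exchanged places 3 and 4 at 8 h without replicate 2 or 3.

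With the longest transcript the share of MMP17 was 16.3% at 0 h, 14.7% at 8 h and 21.5% at 24 h, that of MMP16 21.4% at 8 h and 23.7% at 24 h, that of MMP15 9.20% and 9.37% at 8 h and 24 h, and that of MMP24 0.205% at 0 h and 0.193% at 8 h. The cause of these shifts was not tested, beyond the fewer samples or genes that an alternative holds. Of the single-member values under all alternatives, 329 kept direction and side of the threshold, 32 lost it, 3 passed it and 8 turned sign. Depth limits MMP25, at or near 3 counts, and MMP24, at 10 to 30 counts.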
